A study of Homo sapiens with 14 samples.

Results

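Glycolysis and the hypoxia response were followed in a module of 38 genes, all of them found among the 23040 genes that the files list. The genes were taken by name: 23 encode glucose transporters, glycolytic enzymes and their regulators, lactate dehydrogenases and a lactate exporter, and 15 are hypoxia-inducible genes with other roles. PKM, the pyruvate kinase gene, is listed under its older symbol PKM2. Of the 38, 37 reached 1 RPKM (reads per kilobase of transcript per M mapped reads) in at least 2 libraries and entered the tests. The exception was SLC2A3, a neuronal-type glucose transporter, which lay between 0 and 0.13 RPKM in Panc-1, against 0 to 0.02 RPKM in AsPC-1.

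The measurements are RNA sequencing of total RNA from Panc-1 and AsPC-1, 2 established human pancreatic cancer cell lines, the former from a primary ductal carcinoma and the latter from ascites. Each line had a mock library from untreated cells, for which the labels give no time, and 6 libraries from cells treated in serum-starved conditions with angiogenin (ANG/hRNase5, 1 µg/ml) or with EGF (50 ng/ml) for 1, 5 or 24 h. ANG is a secreted ribonuclease that the series title calls an EGFR ligand, and EGF is a classical ligand of that receptor. Each of the 14 combinations of line and condition was 1 library, so the 2 lines, the 6 ANG and EGF pairs and the 4 courses of line and ligand were the only repeats, and p-values measure the spread between these libraries only. The doses of the ligands differ, and each was used at a single dose.

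Glycolysis converts glucose to pyruvate in the cytosol. Glucose enters through SLC2A transporters, is phosphorylated by hexokinases and committed by phosphofructokinase, and pyruvate is either reduced to lactate by lactate dehydrogenase or oxidised in mitochondria. Hypoxia-inducible factor (HIF), a dimer of an oxygen-labile alpha subunit and ARNT, binds short ACGTG or GCGTG cores and induces most of these genes when oxygen is low. EGF receptor signalling and MYC can also raise glycolytic genes at normal oxygen. The labels do not state the oxygen level of the cultures.

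Panc-1 libraries had an estimated 11.1 to 16.7 M reads (median 15.0), AsPC-1 libraries 18.7 to 23.7 M (median 21.0), and a single read in a transcript of 2 kb equals 0.0211 to 0.0451 RPKM. The epithelial keratins KRT8, KRT18 and KRT19 lay above 250 RPKM in every library (lowest 250.21, KRT8 after 5 h of ANG in Panc-1), and the other 5 of the 8 epithelial markers were below this in Panc-1. MUC1 stood at 0.77 to 1.75 RPKM over both lines, and in Panc-1 EPCAM at 4.88 to 5.58, CDH1 at 5.86 to 13.5, S100P at 7.34 to 13.1 and CEACAM6 at 6.89 to 11.5 RPKM. In AsPC-1 EPCAM was at 149 to 230 RPKM and CEACAM6 at 580 to 1030 RPKM, and CDH1 was at 66.6 to 89.3 RPKM early and 21.3 to 23.4 RPKM in mock and at 24 h, S100P at 320 to 421 and 84.2 to 112 RPKM. The summed level of the 8 was 918 to 1037 RPKM early and 1150 to 1400 RPKM in mock and at 24 h in Panc-1, and in AsPC-1 2817 to 3543 and 2856 to 3060 RPKM. Of the mesenchymal markers VIM exceeded all 8 epithelial markers in every library, at 2044 to 2755 RPKM (Panc-1) against 1269 to 1798 RPKM (AsPC-1). CDH2 lay between 18.3 and 23.4 RPKM in Panc-1 but did not pass 0.11 RPKM in the other line. ZEB1 spanned 6.1 to 11.2 RPKM over both lines. Of 3 endothelial and 3 acinar markers 0 reached 1 RPKM in either line, and the leukocyte genes PTPRC and CD3E did not exceed 0.05 RPKM. CD14, from the same leukocyte list, was at 0.25 to 0.63 RPKM in Panc-1, against 0.91 to 2.44 RPKM in AsPC-1. CD68, a lysosomal gene in the leukocyte list, stood at 28.4 to 46.8 RPKM in Panc-1, and in AsPC-1 at 66.4 to 92.9 RPKM early and 39.4 to 45.1 RPKM in mock and at 24 h. Of the fibroblast markers LUM stood at 26.5 to 46.3 RPKM in AsPC-1, where COL1A1 and COL1A2 did not exceed 0.01 RPKM. The early libraries (1 h and 5 h) differed from mock and 24 h throughout the transcriptome: of 13427 genes tested, 5.47 to 7.27% in Panc-1, and in AsPC-1 15.7 to 19.6%, were at least 2-fold from mock at 1 h or 5 h, against 2.17 to 2.66% and 1.46 to 5.18% at 24 h. The summed level of 20 G2/M genes was 1196 to 1435 RPKM at 1 h and 5 h and 422 to 522 RPKM in mock and at 24 h in Panc-1. In AsPC-1 it went the other way, 84.0 to 198 RPKM at 1 h and 5 h and 786 to 1105 RPKM in mock and at 24 h. Each result below that sets early libraries against mock or 24 h carries this split, as it does the shifts of CDH1, S100P and CD68 in AsPC-1, and their part in the results was not tested.

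The largest differences in the module lay between the lines, with LDHB and BNIP3 far higher in Panc-1 and SLC2A1 and NDRG1 far higher in AsPC-1. With limma over 7 pairs of condition, 28 of the 37 tested members differed between Panc-1 and AsPC-1, 19 of them higher and 9 lower in Panc-1, while 68.8% of all genes tested differed, 39.6% higher and 29.3% lower in Panc-1. Among the 22 tested glycolytic genes 10 were higher in Panc-1 and 6 lower, and among the 15 hypoxia-inducible genes 9 were higher and 3 lower. The median log2 difference was 0.29 for the glycolytic genes, 0.70 for the hypoxia-inducible genes and 0.13 over all genes. The share of members called (28 of 37) is near that of all genes, so the counts say little about the module, and the single genes carry the description. LDHB, BNIP3 and PDK3 reached the filter of 1 RPKM in 2 libraries only through Panc-1, and CA9 only through AsPC-1, so these genes had to differ and their calls, which are among the 28, are given without a p. Log2 differences are on the scale of log2(RPKM + 1), which understates the change of low genes, except for the LDHA to LDHB ratio, which is of RPKM with no pseudocount.

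**Figure D1:**
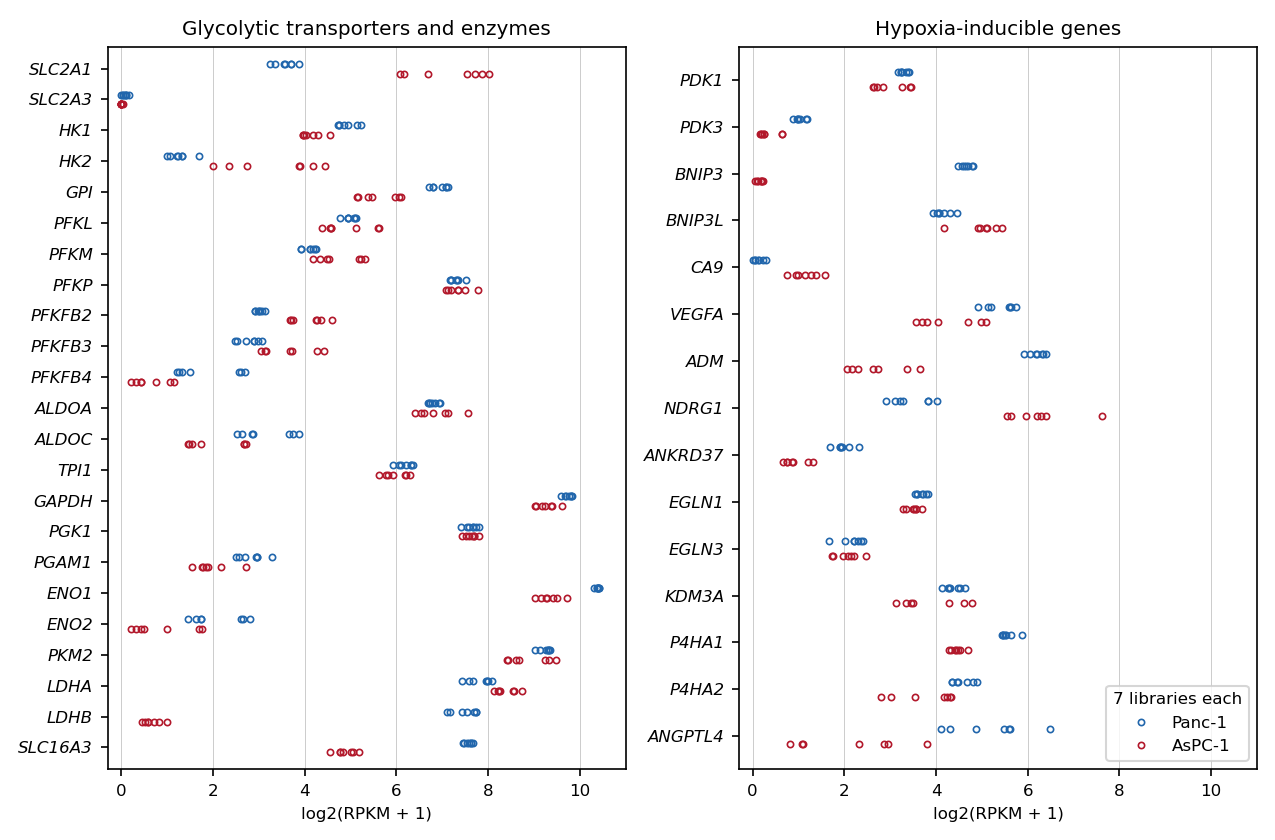
Level of each of the 38 members as log2(RPKM + 1) (x axis) in 7 Panc-1 libraries (blue) and 7 AsPC-1 libraries (red), 1 point per library. LDHB and BNIP3 are far to the right in Panc-1, SLC2A1, HK2 and NDRG1 in AsPC-1, and GAPDH, ENO1, PKM2 and PGK1 are abundant in both lines.

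The plot of levels by line shows that the ranges of the 7 libraries of each line were apart for 19 members and overlapped for 18. Panc-1 was above for 13 and AsPC-1 for 6. The 13 include LDHB, BNIP3 and PDK3 and the 6 include CA9, which passed the filter only through the line where they were higher. Over all 13427 genes tested the ranges were apart for 45%, with Panc-1 above for 3510 and AsPC-1 above for 2530.

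At the entry of the pathway AsPC-1 had the higher levels. SLC2A1, the GLUT1 glucose transporter (hg19, chromosome 1, 43391046 to 43424847), ranged from 8.43 to 13.6 RPKM in Panc-1 (median 10.9), against 67.0 to 258 RPKM in AsPC-1 (median 184), a log2 difference of -3.59 ± 0.22 (SE, 7 of 7 pairs lower in Panc-1; limma adjusted p = 1.07e-06). HK2, the inducible hexokinase (chromosome 2, 75059782 to 75120481), ranged from 0.99 to 2.22 RPKM in Panc-1, against 2.97 to 20.8 RPKM in AsPC-1 (-2.09 ± 0.33, adjusted p = 0.000511). The constitutive hexokinase HK1 had the opposite order, 25.4 to 36.5 RPKM in Panc-1, against 14.6 to 22.5 RPKM in AsPC-1 (0.78 ± 0.09, adjusted p = 8.31e-05). For all 3 genes the ranges of the lines did not overlap. Panc-1 thus held more HK1 than HK2 transcript in every library, and in AsPC-1 HK2 was the higher after 5 h of EGF (20.8 against 18.4 RPKM) and HK1 in mock (15.2 against 4.08 RPKM).

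Of the phosphofructokinase subunits, PFKP was the most abundant in both lines (143 to 181 RPKM in Panc-1, against 135 to 219 RPKM in AsPC-1); neither it nor PFKL passed the test. PFKM was lower in Panc-1 (14.1 to 18.0 against 17.1 to 38.8 RPKM, -0.64 ± 0.17, limma adjusted p = 0.0098). The PFKFB enzymes make and remove fructose 2,6-bisphosphate, the activator of phosphofructokinase, and they were split: PFKFB2 (-1.08 ± 0.13) and PFKFB3 (-0.84 ± 0.19) were lower in Panc-1, and PFKFB4 (1.26 ± 0.14) was higher. PFKFB4 lay between 1.31 and 5.45 RPKM in Panc-1, and its highest AsPC-1 level was 1.21 RPKM.

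The most abundant members were ENO1, GAPDH, PKM2, LDHA and PGK1, enzymes of the lower pathway. ENO1, the common enolase, stood at 1270 to 1366 RPKM in Panc-1, against 519 to 842 RPKM in AsPC-1 (1.05 ± 0.12, limma adjusted p = 5.79e-05), with no overlap. GAPDH (0.47 ± 0.12), GPI (1.33 ± 0.19), PGAM1 (0.88 ± 0.16), ALDOC (1.13 ± 0.09) and the neuronal enolase ENO2 (1.25 ± 0.10) were also higher in Panc-1. PKM2 (0.37 ± 0.19), TPI1, ALDOA and PGK1 did not pass. GAPDH, ENO1, PGK1, TPI1, PGAM1, ALDOA, PKM2, LDHA and LDHB have processed pseudogenes or close copies, and because the treatment of reads that match several places is not given, their levels are uncertain. SLC16A3, the lactate exporter MCT4, stood at 175 to 204 RPKM in Panc-1, against 22.3 to 35.4 RPKM in AsPC-1 (2.69 ± 0.07, adjusted p = 9.63e-09).

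The largest difference of the module was in lactate dehydrogenase B. Lactate dehydrogenase is a tetramer of A and B subunits; the A form is the one induced by HIF and MYC, and B predominates in oxidative tissues. LDHB (chromosome 12, 21788275 to 21810789) stood at 171 RPKM in Panc-1 mock, at 205, 213 and 136 RPKM after 1, 5 and 24 h of ANG, and at 211, 185 and 143 RPKM after 1, 5 and 24 h of EGF. In AsPC-1 it stood at 0.50 RPKM in mock, 1.0, 0.64 and 0.77 RPKM with ANG and 0.36, 0.44 and 0.50 RPKM with EGF. LDHB was thus at or under 1 RPKM in every AsPC-1 library and among the abundant members in every Panc-1 library (6.82 ± 0.12). LDHA (chromosome 11, 18415936 to 18429765) was 201 RPKM in Panc-1 mock, 252, 246 and 172 RPKM with ANG and 270, 253 and 191 RPKM with EGF. In AsPC-1 LDHA was 428 RPKM in mock, 304, 280 and 375 RPKM with ANG and 296, 302 and 372 RPKM with EGF. Every AsPC-1 library lay above every Panc-1 library for LDHA, though by far less than for LDHB (-0.57 ± 0.16, limma adjusted p = 0.0115).

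The ratio of LDHA to LDHB was 1.16 to 1.37 in Panc-1, against 304 to 856 in AsPC-1. LDHA made up 53.6 to 57.9% of the summed LDHA and LDHB level in Panc-1, against 99.7 to 99.9% in AsPC-1. The log2 ratio was lower in Panc-1 in 7 of 7 pairs by a mean of -8.86 ± 0.53 (SD, n = 7 pairs), and by -7.39 with a pseudocount of 1 on each gene. Since LDHB passed the filter only through Panc-1, this ratio had to differ between the lines and is given without a p. The AsPC-1 ratios rest on LDHB levels of at most 1.0 RPKM.

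The promoter windows of these genes are shown because LDHA is a known HIF target and LDHB carried the largest difference. The windows are the 250 bases before the annotated start in RefSeq (GRCh38.p14), chr11:18394313-18394562 on the plus strand for LDHA and chr12:21657843-21658092 on the minus strand for LDHB, printed 5′ to 3′ on the gene's strand. Capitals mark each match of ACGTG or GCGTG on either strand (read as CACGT or CACGC on the other strand); overlapping matches run together, so a CACGTG counts as 2.

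LDHA promoter: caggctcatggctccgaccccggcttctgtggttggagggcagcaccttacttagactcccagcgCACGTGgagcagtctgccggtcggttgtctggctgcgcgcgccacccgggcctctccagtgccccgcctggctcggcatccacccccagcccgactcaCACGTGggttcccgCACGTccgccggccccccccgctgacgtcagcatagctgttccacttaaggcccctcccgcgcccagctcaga

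LDHB promoter: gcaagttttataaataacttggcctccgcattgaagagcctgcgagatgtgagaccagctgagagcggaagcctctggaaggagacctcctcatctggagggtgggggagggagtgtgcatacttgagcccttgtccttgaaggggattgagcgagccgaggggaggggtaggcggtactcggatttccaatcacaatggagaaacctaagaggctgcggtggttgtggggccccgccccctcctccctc

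The LDHA window held 5 matches, among them 2 CACGTG, and the LDHB window 0. No match says only that these letters are not in this window. RefSeq windows were found for 33 of the 38 members, 60 windows in all since some genes have several starts, and where a gene had several the one with most matches is printed. A core was present in 60.0% of the members' windows, in 54.3% of those of glycolytic genes and in 78.6% of those of hypoxia-inducible genes, against 43.2% of 35116 windows of all genes and 49.3% of those of protein-coding genes. These shares count windows, 46 from 21 glycolytic genes and 14 from 12 hypoxia-inducible genes. Genes with several starts, such as HK1 and PFKM, therefore weigh more, and no difference by gene is read from the shares. CACGTG alone was in 13.3% of the members' windows and in 6.3% of all windows. The members' windows had a median GC content of 68.4%, against 58.0% over all windows, and both cores hold a CG, so the shares are descriptions and were not tested.

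Among the hypoxia-inducible genes BNIP3, a mitophagy receptor and HIF target (chromosome 10, 133781204 to 133795435), stood at 21.2 to 26.8 RPKM in Panc-1, against 0.03 to 0.17 RPKM in AsPC-1, a log2 difference of 4.51 ± 0.08 (7 of 7 pairs). Its homologue BNIP3L was higher in AsPC-1 (17.1 to 42.5 against 14.3 to 21.0 RPKM; -0.85 ± 0.19, limma adjusted p = 0.00337), with overlapping ranges. The BNIP3 promoter window (chr10:131981924-131982173, minus strand) is shown because of this difference between the lines; it had 6 core matches, including 1 CACGTG.

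BNIP3 promoter: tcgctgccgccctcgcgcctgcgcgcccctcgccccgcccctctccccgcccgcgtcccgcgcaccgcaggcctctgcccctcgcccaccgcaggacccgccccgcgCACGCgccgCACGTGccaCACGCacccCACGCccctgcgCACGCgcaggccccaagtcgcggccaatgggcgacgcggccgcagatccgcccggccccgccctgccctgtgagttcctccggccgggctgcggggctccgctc

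ADM, which encodes the vasodilator peptide adrenomedullin, lay between 59.2 and 83.8 RPKM in Panc-1, against 3.18 to 11.5 RPKM in AsPC-1 (3.50 ± 0.18, limma adjusted p = 4.54e-07). ANGPTL4, a secreted inhibitor of lipoprotein lipase, lay between 16.2 and 88.9 RPKM in Panc-1, against 0.75 to 13.0 RPKM in AsPC-1 (3.07 ± 0.56, adjusted p = 0.00117). NDRG1, a MYC-repressed gene induced by hypoxia and other stress, was the reverse, 6.51 to 15.3 RPKM in Panc-1, against 45.5 to 196 RPKM in AsPC-1 (-2.78 ± 0.30, adjusted p = 4.66e-05). These 3 genes also had ranges that did not overlap.

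CA9, the membrane carbonic anhydrase often used as a hypoxia marker, was low in both lines. It was listed at 0.04 RPKM in Panc-1 mock, 0.23, 0.10 and 0.04 RPKM with ANG and 0.09, 0.17 and 0 RPKM with EGF at 1, 5 and 24 h. The AsPC-1 level was 1.60 RPKM in mock, 0.93, 0.99 and 1.99 RPKM with ANG and 1.41, 0.68 and 1.22 RPKM with EGF (-1.02 ± 0.13), with every AsPC-1 library above every Panc-1 library. The collagen prolyl hydroxylases P4HA1 (1.10 ± 0.10) and P4HA2 (0.81 ± 0.28), the ankyrin repeat gene ANKRD37 (1.06 ± 0.09), the pyruvate dehydrogenase kinase PDK3 (0.70 ± 0.08), the histone demethylase KDM3A (0.50 ± 0.17) and VEGFA (1.14 ± 0.31) were higher in Panc-1. PDK1 (0.30 ± 0.12, adjusted p = 0.0506) and the HIF prolyl hydroxylases EGLN1 (0.18 ± 0.07, adjusted p = 0.0545) and EGLN3 did not pass. P4HA2 lost its call with centring or without the mock pair or either 24 h pair, and KDM3A without any 1 h or 5 h pair, while PDK1 passed with no variance trend or without the mock pair or either 24 h pair. The 2 lines therefore did not stand in one order for hypoxia targets: Panc-1 was higher for ADM and ANGPTL4 and AsPC-1 for NDRG1 and SLC2A1.

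The change with time was tested without the mock libraries, as 24 h against 1 h over 4 courses. Of the 37 members 3 rose and 1 fell, while 6.36% of all genes tested were called (3.44% higher, 2.92% lower). The aldolase ALDOC, the enolase ENO2 and the regulator PFKFB4 rose and the prolyl hydroxylase EGLN3 fell, each in 4 of 4 courses. The module's median was 0.04, as was that of all genes.

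ALDOC, the brain-type aldolase (chromosome 17, 26900133 to 26903951), stood in Panc-1 at 12.4 RPKM in mock, at 6.16, 5.20 and 11.6 RPKM after 1, 5 and 24 h of ANG and at 6.29, 4.72 and 13.8 RPKM after 1, 5 and 24 h of EGF. In AsPC-1 it was at 5.37 RPKM in mock, 1.77, 1.89 and 5.43 RPKM with ANG and 1.73, 2.33 and 5.57 RPKM with EGF. In both lines the early libraries were low and mock and 24 h were high, without overlap (24 h against 1 h 1.08 ± 0.12, limma adjusted p = 0.00707). ENO2 (chromosome 12, 7023614 to 7032859) followed the same order, in Panc-1 with 6.0 RPKM in mock, 2.35, 1.74 and 5.27 RPKM with ANG and 2.35, 2.10 and 5.12 RPKM with EGF. In AsPC-1 ENO2 was at 2.39 RPKM in mock, 0.24, 0.40 and 2.25 RPKM with ANG and 0.35, 0.16 and 0.99 RPKM with EGF. Again the early libraries were the low ones, by 0.93 ± 0.13 (adjusted p = 0.0121).

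PFKFB4 (chromosome 3, 48555117 to 48594227), a kinase and phosphatase of fructose 2,6-bisphosphate, was at 4.92 RPKM in Panc-1 mock, 1.51, 1.82 and 5.15 RPKM with ANG and 1.40, 1.31 and 5.45 RPKM with EGF. The AsPC-1 level was 1.09 RPKM in mock, 0.35, 0.25 and 1.21 RPKM with ANG and 0.34, 0.16 and 0.70 RPKM with EGF. Its early libraries were low in both lines (0.94 ± 0.18, limma adjusted p = 0.0251), with AsPC-1 levels near or under 1 RPKM. EGLN3, a HIF target that hydroxylates the HIF alpha subunit, was at 3.92 RPKM in Panc-1 mock, 4.13, 4.32 and 3.65 RPKM with ANG and 3.63, 3.01 and 2.17 RPKM with EGF. In AsPC-1 it was at 2.90 RPKM in mock, 3.62, 3.20 and 2.31 RPKM with ANG and 4.58, 3.44 and 2.38 RPKM with EGF. It was lower at 24 h than at 1 h in every course (-0.47 ± 0.11, adjusted p = 0.0401), with early and 24 h ranges apart in AsPC-1 and overlapping in Panc-1, and did not pass with no filter on low values. Without the AsPC-1 EGF course ALDOC and ENO2 passed, and without any other course 0 members passed.

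The promoter windows of the 3 genes that moved together are shown, with the core matches in capitals as above (RefSeq, GRCh38.p14; ALDOC chr17:28576896-28577145, minus strand; ENO2 chr12:6914330-6914579, plus strand; PFKFB4 chr3:48556804-48557053, minus strand).

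ALDOC promoter: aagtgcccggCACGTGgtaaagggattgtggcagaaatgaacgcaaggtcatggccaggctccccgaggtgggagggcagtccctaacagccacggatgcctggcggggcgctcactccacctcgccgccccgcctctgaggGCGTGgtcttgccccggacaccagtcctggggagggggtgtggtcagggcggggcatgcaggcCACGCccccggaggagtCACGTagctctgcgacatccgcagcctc

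ENO2 promoter: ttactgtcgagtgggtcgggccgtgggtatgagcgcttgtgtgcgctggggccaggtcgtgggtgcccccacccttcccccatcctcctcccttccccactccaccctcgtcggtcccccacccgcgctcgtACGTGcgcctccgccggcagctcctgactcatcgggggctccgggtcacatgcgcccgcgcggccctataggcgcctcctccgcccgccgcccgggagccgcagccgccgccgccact

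PFKFB4 promoter: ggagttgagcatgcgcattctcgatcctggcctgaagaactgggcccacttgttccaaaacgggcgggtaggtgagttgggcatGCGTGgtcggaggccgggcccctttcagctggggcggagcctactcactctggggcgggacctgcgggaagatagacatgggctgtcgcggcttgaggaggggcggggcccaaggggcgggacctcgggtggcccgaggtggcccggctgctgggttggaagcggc

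The ALDOC window had 5 matches, including 1 CACGTG, and those of ENO2 and PFKFB4 had 1 each. A match is a sequence description and not a measured binding site.

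Many members had a change with time that differed between the lines: SLC2A1, HK2, PFKFB3, P4HA2 and ANGPTL4 were high early in AsPC-1, and GPI, PFKM, PKM2, LDHA and VEGFA were low early in AsPC-1. In the test of whether the change from 1 h to 24 h differed between the lines, 2 courses in each, 19 of the 37 members passed, 7 with the more positive change in Panc-1 and 12 with the more negative, against 36% of all genes tested (13.9% and 22.2%). Among the glycolytic genes the split was 4 and 10, and among the hypoxia-inducible genes 3 and 2. The median of this difference was -0.41 for the glycolytic genes, 0.10 for the hypoxia-inducible genes and -0.07 over all genes. After centring of the libraries on their medians 18 members passed, 10 more positive and 8 more negative in Panc-1, and the median of all genes moved by 0.17. Of all genes, 1860 were more positive and 2978 more negative in Panc-1, and 3028 and 2375 with centring. All 20 G2/M genes passed the same test, with a median of -4.04.

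**Figure D2:**
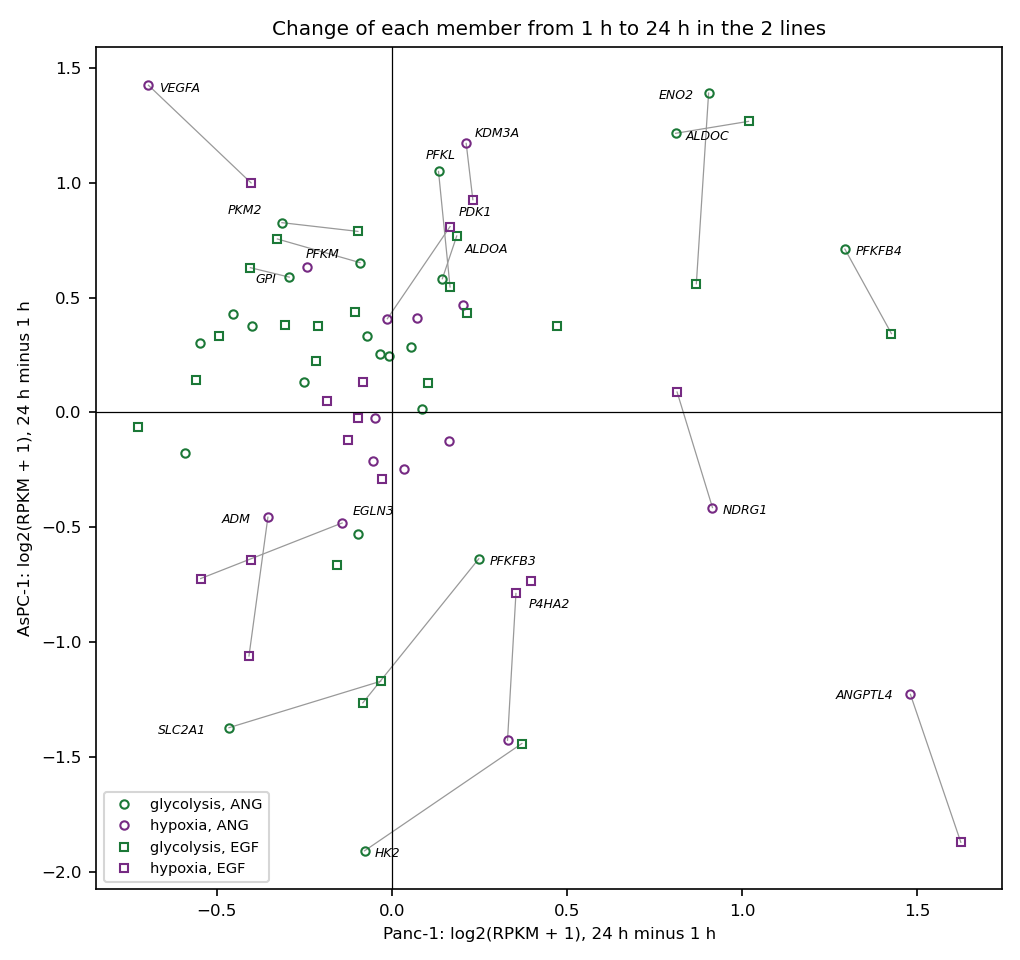
Change of each tested member from 1 h to 24 h on the log2(RPKM + 1) scale in Panc-1 (x axis) and AsPC-1 (y axis), with circles for ANG and squares for EGF, green for glycolytic and purple for hypoxia-inducible genes, and a grey line joining the points of a named gene. VEGFA, PKM2, GPI and PFKM lie at upper left (lower in Panc-1 and higher in AsPC-1 at 24 h), ANGPTL4 and P4HA2 at lower right, and ALDOC, ENO2 and PFKFB4 at upper right.

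For SLC2A1 and HK2 the early libraries of AsPC-1 were high and those of Panc-1 lay closer to mock. SLC2A1 stood in AsPC-1 at 67.0 RPKM in mock, 184, 210 and 70.6 RPKM after 1, 5 and 24 h of ANG and 232, 258 and 102 RPKM after 1, 5 and 24 h of EGF. In Panc-1 it was at 9.27 RPKM in mock, 12.02, 13.6 and 8.43 RPKM with ANG and 10.9, 11.9 and 10.7 RPKM with EGF. The change from 1 h to 24 h was -1.27 in AsPC-1 and -0.25 in Panc-1 (means of 2 courses), a difference of 1.02 ± 0.18 (limma adjusted p = 0.00506), and in both lines the early range lay above the 24 h range. HK2 stood in AsPC-1 at 4.08 RPKM in mock, 13.9, 13.8 and 2.97 RPKM with ANG and 17.2, 20.8 and 5.69 RPKM with EGF. In Panc-1 HK2 was at 1.52 RPKM in mock, 1.10, 1.37 and 0.99 RPKM with ANG and 1.49, 1.32 and 2.22 RPKM with EGF, with no separation of early from late (difference between lines 1.82 ± 0.26, adjusted p = 0.00216). HK1 did not pass: in Panc-1 it was at 34.5 RPKM in mock, 27.9, 25.7 and 29.7 RPKM with ANG and 26.1, 25.4 and 36.5 RPKM with EGF, and in AsPC-1 at 15.2, then 14.6, 14.7 and 14.8, and then 17.1, 18.4 and 22.5 RPKM in the same order.

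PFKFB3, the family member whose kinase activity most exceeds its phosphatase activity, was at 7.84 RPKM in AsPC-1 mock, 11.8, 12.2 and 7.21 RPKM with ANG and 20.4, 18.4 and 7.89 RPKM with EGF. In Panc-1 it was at 6.39 RPKM in mock, 4.54, 4.72 and 5.58 RPKM with ANG and 7.36, 6.45 and 6.89 RPKM with EGF (difference between lines 1.03 ± 0.23, limma adjusted p = 0.011). The early range lay above the 24 h range in AsPC-1 and overlapped it in Panc-1. PFKFB2 had early levels above 24 h levels in both lines and did not pass the test of a difference (0.47 ± 0.16, adjusted p = 0.0553).

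PKM2, GPI and LDHA had early levels that were high in Panc-1 and low in AsPC-1. PKM2 was at 560 RPKM in Panc-1 mock, 642, 633 and 516 RPKM with ANG and 652, 636 and 610 RPKM with EGF. The AsPC-1 level was 638 RPKM in mock, 342, 338 and 608 RPKM with ANG and 410, 387 and 708 RPKM with EGF. The early libraries were the high ones in Panc-1 and the low ones in AsPC-1, without overlap in either (difference between lines -1.01 ± 0.18, limma adjusted p = 0.00545). GPI, the isomerase after hexokinase, was at 111 RPKM in Panc-1 mock, 135, 134 and 110 RPKM with ANG and 138, 126 and 104 RPKM with EGF. In AsPC-1 GPI was at 65.6 RPKM in mock, 40.6, 34.0 and 61.5 RPKM with ANG and 43.2, 34.6 and 67.5 RPKM with EGF (-0.96 ± 0.11, adjusted p = 0.000945). LDHA, with the values given above, was highest in the early libraries of Panc-1 and lowest in those of AsPC-1 (-0.84 ± 0.15, adjusted p = 0.00447).

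TPI1 (-0.73 ± 0.11), PFKM (-0.91 ± 0.14), PGAM1 (-0.77 ± 0.25), PFKL (-0.65 ± 0.18), LDHB (-0.56 ± 0.17), ALDOA (-0.51 ± 0.13) and PGK1 (-0.41 ± 0.14, limma adjusted p = 0.05 after rounding) passed in the same direction. PFKFB4 passed with the larger rise in Panc-1 (0.83 ± 0.19). Of these calls PGAM1 and LDHB were lost with a pseudocount of 0.1, with no filter or with centring, PGK1 with the pseudocount or centring, PFKFB4 with the pseudocount, PFKL with no filter and ALDOA with centring. Of the 22 glycolytic genes the 1 h and 5 h range lay above the 24 h range for 10 in Panc-1 and 4 in AsPC-1, and below it for 6 in Panc-1 and 12 in AsPC-1. Over all genes these ranges were apart for 55.4% in Panc-1 and 54.6% in AsPC-1, and of the 37 members 13 and 11 had overlapping ranges. GPI, TPI1, ENO1, PKM2, LDHA and VEGFA were above in Panc-1 and below in AsPC-1. Shares of all genes by direction were not computed, so neither these directions nor the counts by direction are read as particular to the module.

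**Figure D3:**
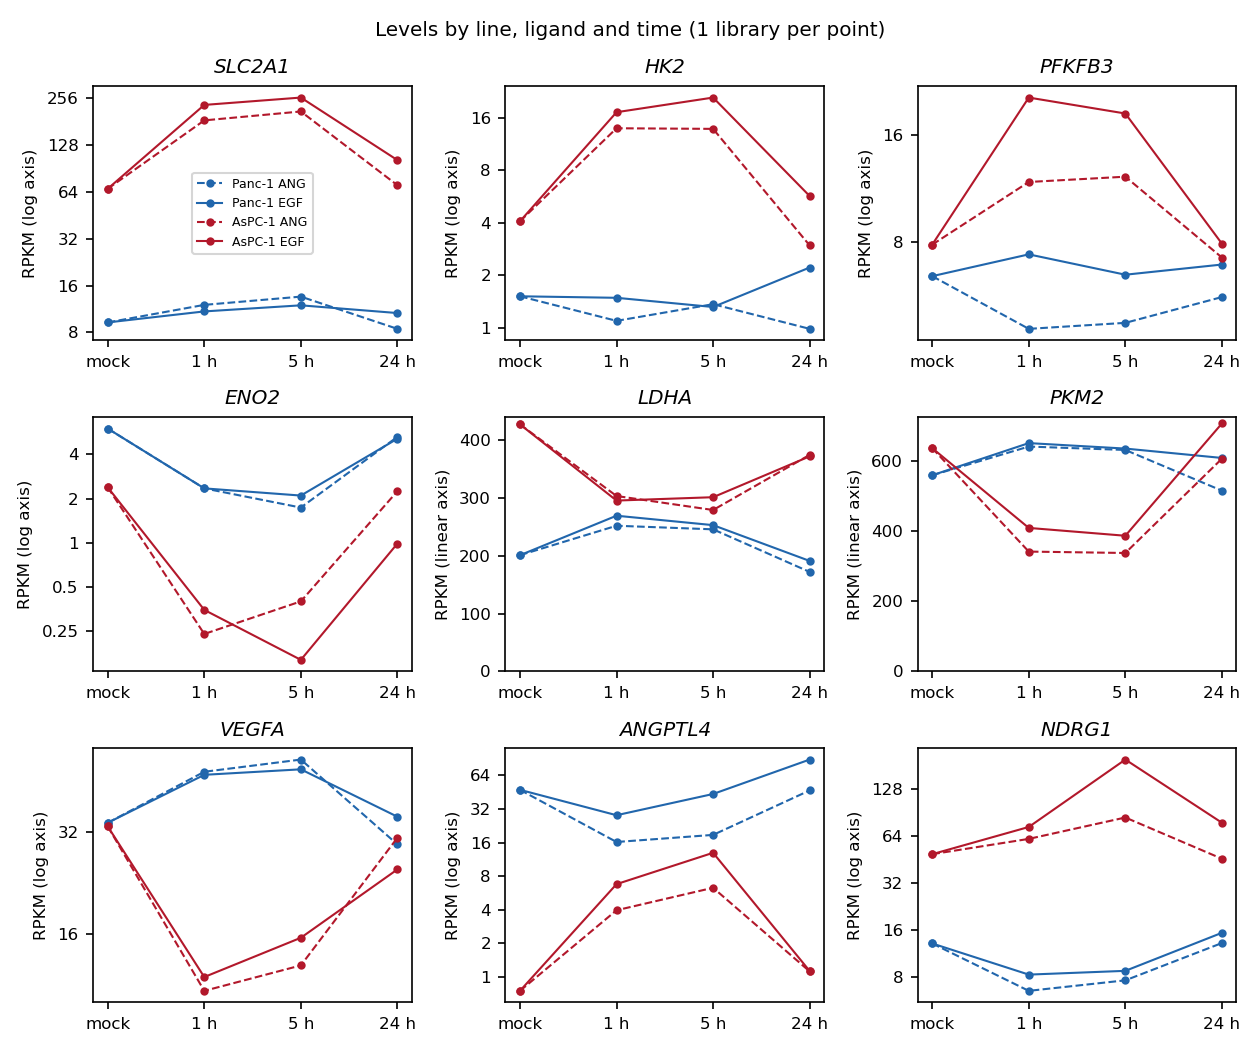
RPKM (y axis, log scale except for LDHA and PKM2, which start at 0) of 9 members in mock and after 1, 5 and 24 h of ANG (dashed) or EGF (solid) in Panc-1 (blue) and AsPC-1 (red), 1 library per point, with the mock library shared by both ligands of a line. VEGFA starts at 34.0 and 33.2 RPKM in the mock libraries and parts to 48.2 and 10.8 RPKM after 1 h of ANG.

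VEGFA, the angiogenic growth factor and a standard HIF target (chromosome 6, 43737946 to 43754223), had nearly equal mock levels and parted early, as the time courses show. In Panc-1 it was at 34.0 RPKM in mock, 48.2, 52.4 and 29.4 RPKM with ANG and 47.2, 49.0 and 35.5 RPKM with EGF. In AsPC-1 it was at 33.2 RPKM in mock, 10.8, 12.9 and 30.7 RPKM with ANG and 11.9, 15.6 and 24.8 RPKM with EGF. The change from 1 h to 24 h was 1.21 in AsPC-1, against -0.55 in Panc-1, a difference of -1.76 ± 0.21 (limma adjusted p = 0.000913). KDM3A passed with the more positive change in AsPC-1 (-0.83 ± 0.14, adjusted p = 0.00402), where it was at 26.4 RPKM in mock and at 7.72 to 10.4 RPKM in the early libraries.

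ANGPTL4 had the opposite pattern to VEGFA. In Panc-1 it was at 47.6 RPKM in mock, 16.2, 18.8 and 47.0 RPKM with ANG and 28.2, 43.7 and 88.9 RPKM with EGF. The AsPC-1 level was 0.75 RPKM in mock, 3.96, 6.30 and 1.12 RPKM with ANG and 6.79, 13.0 and 1.13 RPKM with EGF. The change from 1 h to 24 h was 1.55 in Panc-1, against -1.55 in AsPC-1, a difference of 3.10 ± 0.29 (limma adjusted p = 0.000404), the largest of the module. P4HA2 was at 28.6 RPKM in Panc-1 mock, 19.3, 21.4 and 24.6 RPKM with ANG and 21.0, 19.4 and 27.2 RPKM with EGF. In AsPC-1 P4HA2 was at 7.04 RPKM in mock, 17.8, 17.0 and 5.98 RPKM with ANG and 19.0, 18.9 and 10.6 RPKM with EGF (1.45 ± 0.23, adjusted p = 0.00299). Its early libraries were low in Panc-1 and high in AsPC-1.

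NDRG1 was at 13.1 RPKM in Panc-1 mock, 6.51, 7.60 and 13.2 RPKM with ANG and 8.27, 8.74 and 15.3 RPKM with EGF. In AsPC-1 it was at 48.7 RPKM in mock, 61.0, 83.6 and 45.5 RPKM with ANG and 72.7, 196 and 77.4 RPKM with EGF. The early libraries were the low ones in Panc-1, the 5 h EGF library stood highest in AsPC-1, and the difference between the lines passed (1.03 ± 0.28, limma adjusted p = 0.0238) but not with no filter on low values. ADM was above its 24 h level in the early libraries of both lines and did not pass for time (-0.57 ± 0.17, adjusted p = 0.0786) or for a difference between lines. It was at 71.9 RPKM in Panc-1 mock, 83.8, 79.2 and 65.3 RPKM with ANG and 78.9, 72.6 and 59.2 RPKM with EGF. In AsPC-1 ADM was at 3.18 RPKM in mock, 5.16, 5.61 and 3.49 RPKM with ANG and 9.26, 11.5 and 3.92 RPKM with EGF.

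PDK1, the kinase that shuts off pyruvate dehydrogenase, did not pass for time (0.34 ± 0.15, limma adjusted p = 0.205). It was at 9.51 RPKM in Panc-1 mock, 8.48, 9.10 and 8.39 RPKM with ANG and 8.54, 8.02 and 9.70 RPKM with EGF. The AsPC-1 level was 9.80 RPKM in mock, 6.21, 5.52 and 8.57 RPKM with ANG and 5.27, 5.14 and 9.99 RPKM with EGF. PDK1 levels were low in the early AsPC-1 libraries and overlapped in Panc-1, and the difference between lines did not pass (-0.53 ± 0.19, adjusted p = 0.0615). The test of dependence on line rested on the Panc-1 courses, for the members and for all genes alike. Without the ANG course or without the EGF course of Panc-1 5 members passed, with HK2, GPI and ANGPTL4 among them in both cases. Without an AsPC-1 course 20 or 17 members passed. Over all genes 4838 passed with every course, 1311 or 1517 without a Panc-1 course and 4019 or 4852 without an AsPC-1 course. The fall is therefore not read as particular to the members. At 5 h against 1 h 0 members passed, as did 0% of all genes (limma, with 0 members and 149 of all genes at an unadjusted p under 0.05).

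Against mock, with the 2 lines as the only repeat, 2 members fell after 1 h of EGF and the same 2 after 5 h. ALDOC was lower by -1.05 ± 0.18 at 1 h (limma adjusted p = 0.048) and -1.08 ± 0.18 at 5 h (adjusted p = 0.0224), and ENO2 by -1.20 ± 0.19 (adjusted p = 0.0438) and -1.36 ± 0.19 (adjusted p = 0.0203), each in 2 of 2 lines. Of all genes tested 0.663% passed at 1 h (0.454% lower) and 4.22% at 5 h (3.63% lower). Further members at an unadjusted p under 0.05 brought the counts to 6 and 8, among them PFKFB4 (-1.10 ± 0.26 at 5 h, adjusted p = 0.0547) and SLC2A1 (1.13 ± 0.40 at 5 h, adjusted p = 0.15). Of all 13427 genes tested, 2310 and 2995 were at an unadjusted p under 0.05 (limma). With ANG 0 members passed at 1 h, 5 h or 24 h (4, 7 and 0 at an unadjusted p under 0.05), and 0.0819%, 0.112% and 0% of all genes did. Over all genes, 2062, 2391 and 202 were at an unadjusted p under 0.05 (limma). After 24 h of EGF 0 members and 0% of all genes passed (1 member and 961 of all genes at an unadjusted p under 0.05).

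The values for ANG lay beside those for EGF. ALDOC was at -1.05 ± 0.18 after 1 h of ANG (limma adjusted p = 0.0818) and -1.13 ± 0.18 after 5 h (adjusted p = 0.0563), and ENO2 at -1.26 ± 0.19 (adjusted p = 0.0748) and -1.32 ± 0.19 (adjusted p = 0.0563). The ANG and EGF comparisons share both mock libraries, so their likeness is not a separate result. The EGF calls needed every library: without any 1 of the 4 libraries compared 0 members passed at either time, and at 1 h 0 also passed with a pseudocount of 0.1, with no filter on low values, with libraries centred on their median or with the 24 h libraries left out.

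**Figure D4:**
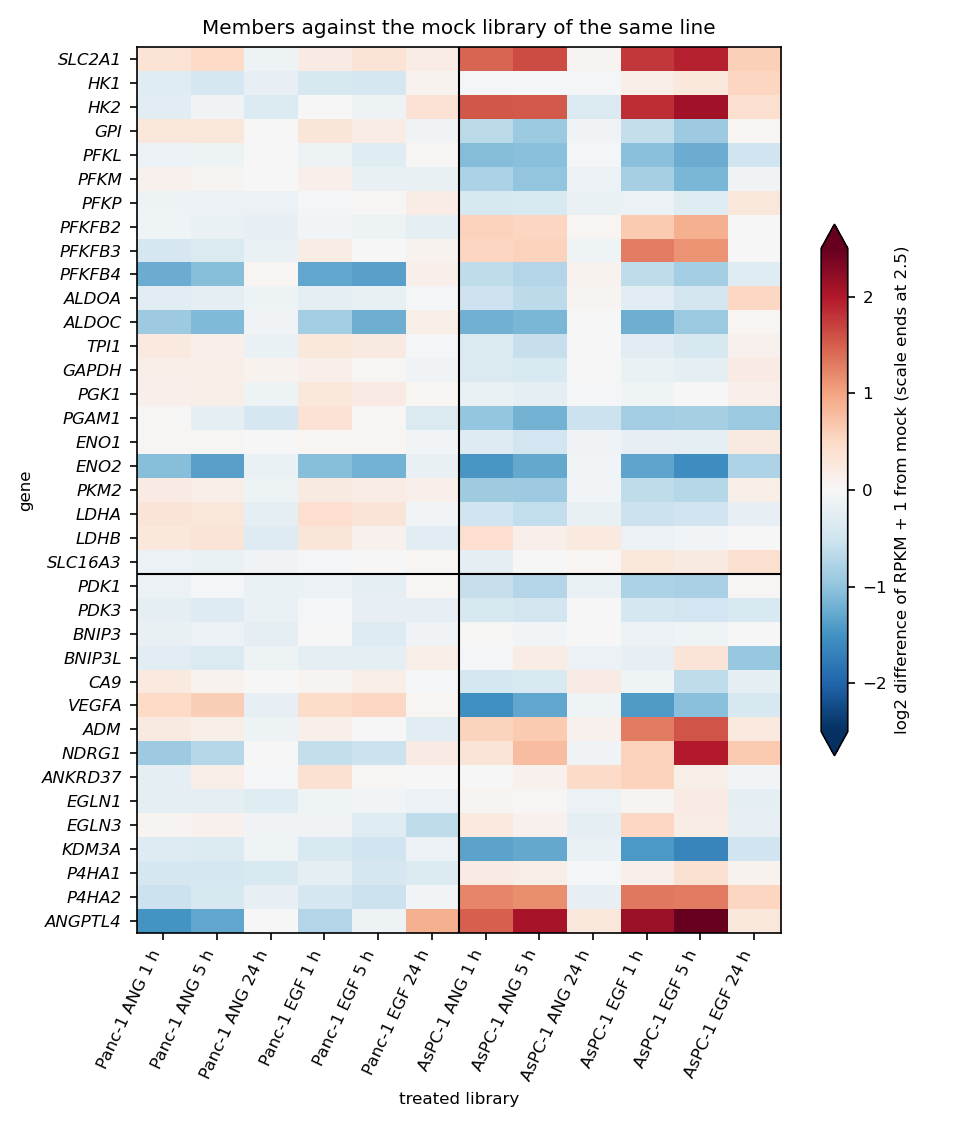
Log2 difference of RPKM + 1 of each tested member (rows, glycolytic genes above the line) between 12 treated libraries (columns) and the mock library of the same line, red for higher and blue for lower, with the colour scale ending at 2.5. The 24 h columns are the palest, ALDOC, ENO2 and PFKFB4 are blue in all early columns, and SLC2A1, HK2, P4HA2 and ANGPTL4 are red in the early columns of AsPC-1.

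Within a line, single treated libraries were set against their mock with no test, on the log2(RPKM + 1) scale. At 1 h and 5 h 2 to 4 of the 37 members were at least 2-fold from mock in Panc-1 (5.41 to 10.8%, against 5.47 to 7.27% of all genes), all of them lower. Over all 13427 genes tested, 452 to 550 were 2-fold higher and 258 to 454 lower in the same libraries. In AsPC-1 the count was 9 to 12 (24.3 to 32.4%, against 15.7 to 19.6% of all genes), 4 to 7 higher and 5 to 6 lower. This AsPC-1 split by direction has no share of all genes beside it and is a description only. At 24 h 0 members were 2-fold from mock with either ligand in either line, where 1.46 to 5.18% of all genes were.

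Between the ligands, over 6 pairs of line and time, limma put 11 members and 2146 of all 13427 genes at an unadjusted p under 0.05. After adjustment 0 of the 37 members differed, and 0.156% of all genes tested did (0.142% higher with EGF, 0.0149% lower). ANGPTL4 came nearest, higher with EGF in 6 of 6 pairs (0.74 ± 0.13, adjusted p = 0.0891), and it passed when the AsPC-1 24 h pair, whose difference was 0.01, was left out. PFKFB3 (0.44 ± 0.09, adjusted p = 0.113), NDRG1 (0.49 ± 0.14, adjusted p = 0.183), SLC16A3 (0.25 ± 0.07, adjusted p = 0.16) and PFKP (0.24 ± 0.07, adjusted p = 0.177) were also higher with EGF in 6 of 6 pairs without passing, and KDM3A was lower in 6 of 6 (-0.18 ± 0.06, adjusted p = 0.257). ALDOA, TPI1, PGK1 and PKM2 were higher with EGF in 6 of 6 pairs too, without passing. The share of all genes with 6 of 6 pairs in the same direction was not computed. HK2 was higher in 5 of 6 (0.42 ± 0.11, limma adjusted p = 0.165). The module's median was 0.08 and that of all genes -0.02. Whether the ligand difference depended on line was passed by 0 members and 0% of all genes (3 members and 1040 of all genes at an unadjusted p under 0.05).

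The LDHA to LDHB ratio was higher with EGF than with ANG in 6 of 6 pairs, by 0.51 ± 0.52 as log2 of the RPKM ratio with no pseudocount (SD, n = 6 pairs; exact two-sided sign-flip permutation test, p = 0.0312, the smallest that 6 pairs allow). In Panc-1 the ratio was 1.28, 1.37 and 1.34 with EGF and 1.23, 1.16 and 1.27 with ANG at 1, 5 and 24 h. In AsPC-1 it was 822, 686 and 745 with EGF and 304, 437 and 487 with ANG, where LDHB was at most 1.0 RPKM. With a pseudocount of 1 on each gene the mean was 0.24, again with the smallest p of the exact permutation test (0.0312). Without any 1 pair the exact permutation test could not go below p = 0.0625, and the mean then lay between 0.33 and 0.60.

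The other genes of these pathways were read from lists outside the module. Their counts of calls between the lines stand against 68.8% of all genes called, 39.6% higher and 29.3% lower in Panc-1, and nothing particular to a list is read from them. Of 13 tested regulators of the HIF pathway 8 were higher in Panc-1 and 0 lower (median 0.46, against 0.13 over all genes). ARNT2, among the 13, reached 1 RPKM only in Panc-1 (1.54 to 3.36 against 0.01 to 0.08 RPKM) and so had to differ. HIF1A, the alpha subunit, stood at 29.9 to 38.2 RPKM in Panc-1, against 15.6 to 25.0 RPKM in AsPC-1 (0.82 ± 0.10, limma adjusted p = 1e-04), its partner ARNT was also higher in Panc-1 (0.40 ± 0.10), and VHL, which targets the alpha subunit for degradation, too (0.93 ± 0.12). EPAS1, the HIF-2 alpha gene, did not differ past the test between lines (0.30 ± 0.19, adjusted p = 0.178). It passed for the dependence of its time course on line (1.07 ± 0.12, adjusted p = 0.000845), with 31.7 to 40.3 RPKM early and 44.9 and 59.3 RPKM at 24 h in Panc-1, and 37.0 to 39.5 RPKM early and 26.8 and 27.8 RPKM at 24 h in AsPC-1. Over time alone, 0 of the 13 regulators passed, beside 6.36% of all genes, so little is read from this count.

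Of 27 further HIF targets 14 were higher and 3 lower in Panc-1 (median 0.48), beside the same 68.8%. The largest differences were those of HMOX1, the heme oxygenase (204 to 286 RPKM in Panc-1, against 1.54 to 5.37 RPKM in AsPC-1, 5.74 ± 0.11), PLOD2, a collagen lysyl hydroxylase (5.63 ± 0.09), and STC2, a secreted glycoprotein (4.99 ± 0.22). PLOD2, STC2 and TMEM45A, all among the 27, reached 1 RPKM only in Panc-1 and so had to differ. At 24 h against 1 h MXI1, the MYC antagonist (0.86 ± 0.15), ZNF395 (0.55 ± 0.10) and the glycogen synthase GYS1 (0.42 ± 0.09) rose. GBE1, the glycogen branching enzyme, fell (-0.47 ± 0.10). Of all genes 3.44% rose and 2.92% fell in that comparison. MXI1 and ZNF395 were also called lower than mock after 1 h and 5 h of EGF, as were 0.454% and 3.63% of all genes. Without any 1 of the 4 libraries compared 0 of all genes were called lower at either time. These calls set early libraries against mock and carry the split described above.

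Among 11 other glycolysis genes 6 were higher and 4 lower in Panc-1 (median 0.37), beside the same 68.8%. Of the 11, SLC2A12 passed the filter only through Panc-1 and LDHC only through AsPC-1, so both had to differ. HKDC1, a further hexokinase, stood at 2.24 to 6.18 RPKM in Panc-1, against 57.8 to 120 RPKM in AsPC-1 (-4.23 ± 0.13, limma adjusted p = 1.79e-08), above HK2 in every library of both lines. FBP1, which runs the phosphofructokinase step backwards, was at 0.13 to 0.35 RPKM in Panc-1, against 14.2 to 66.5 RPKM in AsPC-1 (-4.65 ± 0.26), and passed the filter only through AsPC-1. In AsPC-1 FBP1 was at 66.5 RPKM in mock and 14.2 to 23.0 RPKM in the early libraries. TXNIP, a glucose-induced inhibitor of glucose uptake, stood at 33.2 to 62.2 RPKM in Panc-1, against 271 to 481 RPKM in AsPC-1 (-3.12 ± 0.15).

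Of 11 genes that carry pyruvate to acetyl-CoA 6 were higher and 3 lower in Panc-1 (median 0.35), beside the same 68.8%. PDK2 (1.78 ± 0.32) was higher and PDK4 (-1.55 ± 0.24) and the phosphatase PDP1 (-1.22 ± 0.11) were lower. PDK2 in AsPC-1 was at 19.9 RPKM in mock and 1.49 to 2.03 RPKM in the early libraries, and in Panc-1 at 24.3 RPKM and 11.3 to 16.1 RPKM, without passing for time (1.22 at 24 h against 1 h, limma adjusted p = 0.0775). The mitochondrial pyruvate carrier gene BRP44 (MPC2) and the phosphatase PDP2 passed for a dependence on line of the time course (-1.51 ± 0.22 and 1.85 ± 0.17). In all, 2 genes of this list were more positive and 5 more negative in Panc-1 in that test, which called 36% of all genes, 13.9% more positive and 22.2% more negative.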

How the data were processed

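The deposited files list 23040 genes with position and log2 RPKM, a log2 value the authors computed, per the file headers. The submitters' processing notes name hg19; coordinates are the files' and span introns. For the aligner, the counting tool, strand use and reads with several matches: not given in the sources used here. Values were turned back to RPKM and the lowest log2 value, -8.966, was read as 0. Depth was estimated from genes spanning at most 150 bp, where 99.7 to 100% of values were whole multiples of 1 read within 0.1. RPKM are not counts, so none of the tests is a count test.

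Genes reaching 1 RPKM in 2 or more libraries (13427) were fitted on log2(RPKM + 1) by limma 3.58.1 (R 4.3.3) with a variance trend, Benjamini-Hochberg adjustment over all of them and a threshold of 0.05. Comparisons with mock used an additive model of line and condition over 14 libraries; ANG and EGF were compared in 6 pairs, times in 4 courses and lines in 7 pairs, with line as an interaction where dependence was tested. The ratio of LDHA to LDHB was tested by exact sign flips, and its p is given for EGF against ANG only. The procedure was tested on simulated data. Members and lists were chosen with earlier results of these data known. All members could be named; values in every library are given for 15 genes set in the design and for others with the largest change among those past the threshold, and from each other list up to 3 genes with the largest change in a comparison plus HIF1A, EPAS1, ARNT, VHL, TXNIP and FBP1. The alternatives were a pseudocount of 0.1, no filter, libraries centred on their median, no variance trend, 24 h libraries left out and each library, pair or course left out. Promoter windows are RefSeq's (GRCh38.p14).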

Additional observations from a re-analysis of the deposited data

Results flagged for a closer look

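The change from 1 h to 24 h differed between the lines, by the interaction test with limma over 2 courses in each, for 19 of the 37 tested members. Values are Panc-1 minus AsPC-1 on the log2(RPKM + 1) scale. More positive in Panc-1 were ANGPTL4 (3.10), HK2 (1.82), P4HA2 (1.45), PFKFB3 (1.03), NDRG1 (1.03), SLC2A1 (1.02) and PFKFB4 (0.83). More negative were VEGFA (-1.76), PKM2 (-1.01), GPI (-0.96), PFKM (-0.91), LDHA (-0.84), KDM3A (-0.83), PGAM1 (-0.77), TPI1 (-0.73), PFKL (-0.65), LDHB (-0.56), ALDOA (-0.51) and PGK1 (-0.41). LDHB passed the filter on low values only through Panc-1, so its value rests on the Panc-1 change alone. The same test called 36% of all genes, and the 20 G2/M genes all passed with a median of -4.04, whose part in these results was not tested.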

How the results depend on the processing

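Each condition is 1 library, so the lines, pairs and courses are the only repeats, the time of mock is not given, and low RPKM values rest on few reads. The tests over pairs use line, ligand and time as the pair; the labels carry no replicate numbers, so no replicate block was fitted. After 1 h of EGF the members called went from 2 to 0 with a pseudocount of 0.1, no filter, centred libraries or the 24 h libraries left out, and were 0 without any 1 library, as they were after 5 h. Leaving out 1 pair or course gave 0 to 1 members for EGF against ANG (0 with all), 0 to 2 for 24 h against 1 h (4 with all) and 5 to 20 for its dependence on line (19 with all). The LDHA to LDHB ratio of EGF against ANG then lay between 0.33 and 0.605. Against mock, 5 members in place of 10 were 2-fold apart after 5 h of ANG in AsPC-1 with centring. After 24 h of EGF in AsPC-1 there were 3 in place of 0 with a pseudocount of 0.1. In the main setting 17.1% and 5.18% of all genes were 2-fold apart in these libraries. Shares of all genes under the 2 alternatives are not given here, so these shifts are not read as particular to the members. The cause of these shifts was not tested. No direction reversed among the members called.

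Over all genes, the 89 called after 1 h of EGF became 52 with the pseudocount of 0.1 or no filter, 35 with centring (19 higher, 16 lower, against 28 and 61), 0 without the 24 h libraries and 0 to 2 without a library. After 5 h of EGF 567 became 369 with no filter, 167 with centring (72 higher, 95 lower, against 80 and 487), 304 without the 24 h libraries and 0 without a library. For ANG, 11 at 1 h became 7, 6 and 0 with the pseudocount, no filter and centring, and 15 at 5 h became 26 with the pseudocount and 0 with centring, both 0 without the 24 h libraries or any 1 library. EGF against ANG went from 21 to 0 with no filter, 8 with no variance trend and 0 to 14 without a pair, 24 h against 1 h from 854 to between 0 and 73 without a course, and its dependence on line from 4838 to between 1311 and 4852. Centring moved the median of all genes by 0.15 and 0.20 for EGF at 1 h and 5 h, 0.16 and 0.20 for ANG, 0.14 for EGF at 24 h and -0.10 between the lines.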
